A study of Mus musculus with 9 samples.

Results

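The enzymes that make prostaglandins and leukotrienes were followed in BV2 cells, an immortalised line of mouse microglia, by RNA sequencing. The genes were chosen by name from the textbook pathway, with earlier results of these data known: Pla2g4a, Ptgs1, Ptgs2, Ptges, Ptges2, Ptges3, Tbxas1, Alox5, Alox5ap and Ltc4s. These are 10 of the 55906 genes in the deposited table, and 9 of them were tested, along with the rest of the 11260 genes for which 3 or more libraries had a value of 1 TPM or higher. TPM scales each gene's reads by its length and each library to the same total, so levels of different genes can be set beside each other.

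The study asked how a treatment that the labels name Pilo alters the inflammatory response of microglia. It compared wild-type BV2 cells with no treatment (Control), cells given lipopolysaccharide, a bacterial cell wall component that activates microglia through Toll-like receptor 4 (LPS), and cells given both (LPS+Pilo). Each group had 3 libraries. No label used here states the doses, the times or what Pilo stands for. Whether the biological replicates were separate cultures is not stated either, so the p-values measure the spread between these libraries. BV2 is 1 cell line, and in bulk RNA fewer cells of a state and less RNA per cell cannot be told apart.

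In this pathway a phospholipase A2 frees arachidonic acid from membrane lipids. The cyclooxygenases convert it to prostaglandin H2, from which terminal synthases make prostaglandin E2, thromboxane A2 and other prostanoids. In a separate branch 5-lipoxygenase, helped by its activating protein FLAP, makes leukotriene A4, which is turned into leukotriene B4 or, with glutathione, into leukotriene C4. In macrophages and microglia, inducible cyclooxygenase-2 and the inducible microsomal prostaglandin E synthase are classical targets of LPS.

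Each library's TPM summed to 1000000 within rounding and 10726 to 11123 genes reached 1 TPM, but TPM keep no read numbers, so the depth is unknown. Correlations between libraries of a group ranged from 0.971 to 0.986. On the second principal component, which held 22.02% of the variance, Control replicate 1 (33.99), LPS replicate 1 (15.97) and LPS replicate 2 (18.36) stood apart from LPS replicate 3 (-21.46) and Control replicate 2 (-17.69). Of 12 microglia and macrophage markers 11 were tested, with Cd68 at 976 to 1219 TPM and Csf1r at 34.2 to 63.4 TPM, whereas P2ry12 was at 0 to 0.40 TPM and Tmem119 at 2.15 to 3.05 TPM. The summed level of the 12 was 2750 to 3088 TPM in Control, 2286 to 2477 TPM in LPS and 2087 to 2115 TPM in LPS+Pilo, and its part in the results was not tested. Cd68 and Tyrobp made up most of that sum, and single markers did not all follow it. Itgam had group means of 10.9, 35.4 and 30.3 TPM in Control, LPS and LPS+Pilo, Adgre1 of 19.2, 29.7 and 16.4 TPM and Tmem119 of 2.35, 2.94 and 3.00 TPM. Of 34 markers of other cell types 32 had a mean under 0.5 TPM, and the exceptions were Tubb3 (164 to 457 TPM) and Mbp (3.94 to 6.57 TPM). Among the 32, the T cell marker Cd3d stood at 3.10 TPM in Control replicate 1 and at 0.06 TPM or less in every other library. All 5 mast cell markers, of a cell type rich in Ltc4s, were at 0.

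After LPS alone, the inducible pair Ptgs2 and Ptges rose and Ltc4s fell, while the abundant members Ptges2, Alox5ap and Ptges3 did not pass the test. With LPS+Pilo, Ptgs2 and Ptges were again higher and Ltc4s lower than in Control, and none of the members passed between LPS+Pilo and LPS. Against Control, LPS gave 2 higher and 1 lower of 9 tested members, where 7.76% of all tested genes were called (4.12% higher and 3.64% lower). The median log2 fold change of the members was 0.19, beside 0.07 over all tested genes. LPS+Pilo against Control gave 2 higher and 1 lower of 9, beside 10.2% of all genes (4.85% higher and 5.30% lower), with medians of 0.10 and 0.02. LPS+Pilo against LPS gave 0 of 9 by limma, with 0 at an unadjusted p under 0.05, beside 0.0444% of all genes called (0.00888% higher and 0.0355% lower) and 6.76% at that unadjusted p, and medians of -0.09 and -0.05. A gene was called at a Benjamini-Hochberg adjusted p under 0.05 from limma, fitted over all tested genes on log2(TPM + 1). On that scale the change of genes with low values is understated. The comparisons share libraries, so their values are set side by side and are not independent.

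**Figure D1:**
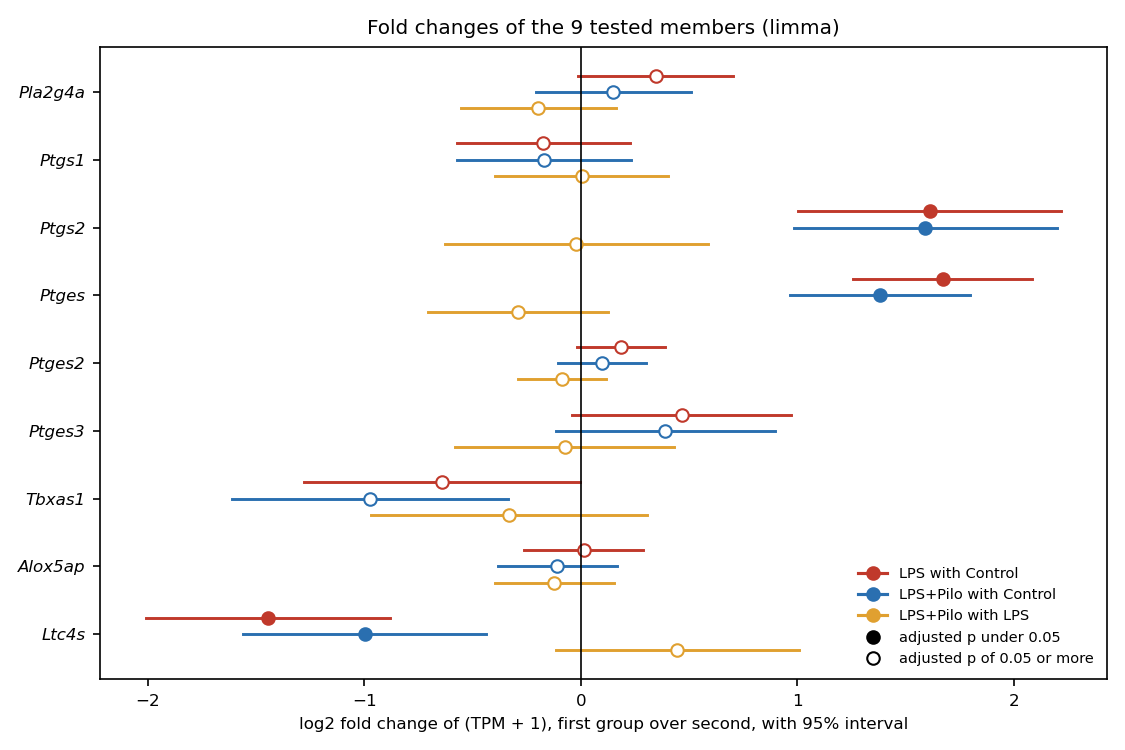
Log2 fold change of TPM + 1 with its 95% interval (horizontal axis) for each of the 9 tested genes (vertical axis) in the comparisons of LPS with Control, LPS+Pilo with Control and LPS+Pilo with LPS, with filled symbols for an adjusted p under 0.05 in limma. Ptgs2 and Ptges lie to the right of 0 and Ltc4s to the left in both comparisons with Control, and every interval for LPS+Pilo with LPS spans 0.

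The release step belongs to Pla2g4a (ENSMUSG00000056220), which encodes cytosolic phospholipase A2, the enzyme that selects arachidonic acid for release. It stood at 12.03, 9.73 and 10.8 TPM in Control, 12.4, 17.7 and 12.5 TPM in LPS and 13.7, 11.4 and 11.4 TPM in LPS+Pilo. The highest library was LPS replicate 2. The lowest LPS library (12.42 TPM) lay just above the highest of Control (12.03 TPM). How many of all tested genes were apart in this way was not counted. The log2 fold change of LPS over Control was 0.35 ± 0.16 (SE), with a limma adjusted p of 0.237. LPS+Pilo differed from LPS by -0.20 (adjusted p = 0.873, limma; 95% interval -0.55 to 0.16).

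Of the cyclooxygenases, Ptgs2 passed the test against Control and Ptgs1 did not. Ptgs1 (ENSMUSG00000047250), the form made constitutively in many tissues, was read at 27.4, 19.5 and 23.4 TPM in Control, 24.4, 22.9 and 15.3 TPM in LPS and 20.3, 21.2 and 20.1 TPM in LPS+Pilo. The groups overlapped, and the spread within LPS (SD 4.87) exceeded the difference of its mean from Control, 20.9 against 23.5 TPM. The log2 fold change was -0.17 ± 0.18 for LPS over Control (adjusted p = 0.599, limma), and LPS+Pilo over LPS was 0.00 with a 95% interval of -0.40 to 0.40.

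Ptgs2 (ENSMUSG00000032487), the inducible cyclooxygenase and target of the coxib drugs, rose under LPS. It was read at 0.92, 0.58 and 0.73 TPM in Control, 6.22, 5.46 and 2.22 TPM in LPS and 4.27, 4.25 and 4.20 TPM in LPS+Pilo. All 6 libraries with LPS were above all 3 of Control, LPS replicate 3 was the lowest of them, and the LPS+Pilo libraries lay between it and the other LPS libraries. The ratio of mean TPM of LPS to Control was 6.23, and the log2 fold change of TPM + 1 was 1.61 ± 0.27 (95% interval 1.01 to 2.22; adjusted p = 0.00652, limma). LPS+Pilo over Control gave 1.59 ± 0.27, with a mean TPM ratio of 5.70 (adjusted p = 0.00577, limma). LPS+Pilo over LPS gave -0.02 ± 0.27 (95% interval -0.63 to 0.59; adjusted p = 0.996, limma). The sign of that value turned under both other scalings (0.026 and 0.050). Without LPS replicate 3, which also lay lowest on the second principal component, it was -0.38 (adjusted p = 0.442, limma) and LPS over Control was 1.97; the part of that component was not tested. Every Control library was under 1 TPM, so the gene reached the test through its LPS and LPS+Pilo libraries. Without a minimum level it was called against Control as well.

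The 250 bases before the start of Ptgs2 are shown because the gene carries the clearest rise among the cyclooxygenases. The sequence is from RefSeq, build GRCm38.p6, chr1:150099781-150100030, plus strand, which is not the build of the deposited table. Capitals mark the matches to a C/EBP motif (TTNNGCAA), 69 to 62 bases before the start, and a PU.1 motif (GAGGAA), 247 to 242 bases before it.
Ptgs2: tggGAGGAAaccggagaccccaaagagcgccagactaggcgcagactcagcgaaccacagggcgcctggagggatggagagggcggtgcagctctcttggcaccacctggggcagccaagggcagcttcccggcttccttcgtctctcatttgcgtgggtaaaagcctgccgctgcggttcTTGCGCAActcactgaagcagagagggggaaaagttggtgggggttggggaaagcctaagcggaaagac
Of 32851 promoter windows of this length, 9.56% hold the C/EBP letters and 23.3% the PU.1 letters on either strand. A match is a description of the letters and not evidence of binding.

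Because TPM is per length, the cyclooxygenase forms can be compared within a library. Ptgs2 made up 3.24, 2.88 and 3.03% of the summed TPM of Ptgs1 and Ptgs2 in Control, 20.3, 19.3 and 12.6% in LPS and 17.4, 16.7 and 17.3% in LPS+Pilo. All libraries with LPS lay above those of Control, and the LPS+Pilo libraries lay within the range of LPS. The mean share was 14.4 percentage points above Control in LPS and 14.1 points above it in LPS+Pilo. In a two-sided exact permutation test each had p = 0.1, the smallest that 3 libraries against 3 can give (0.15 after Benjamini-Hochberg adjustment over 3 pairs), so the test could not pass 0.05 here. LPS+Pilo and LPS differed by -0.30 points (exact p = 1). Ptgs1 remained the more abundant transcript in every group, with a ratio of mean TPM to Ptgs2 of 31.5 in Control, 4.51 with LPS and 4.85 with LPS+Pilo.

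**Figure D2:**
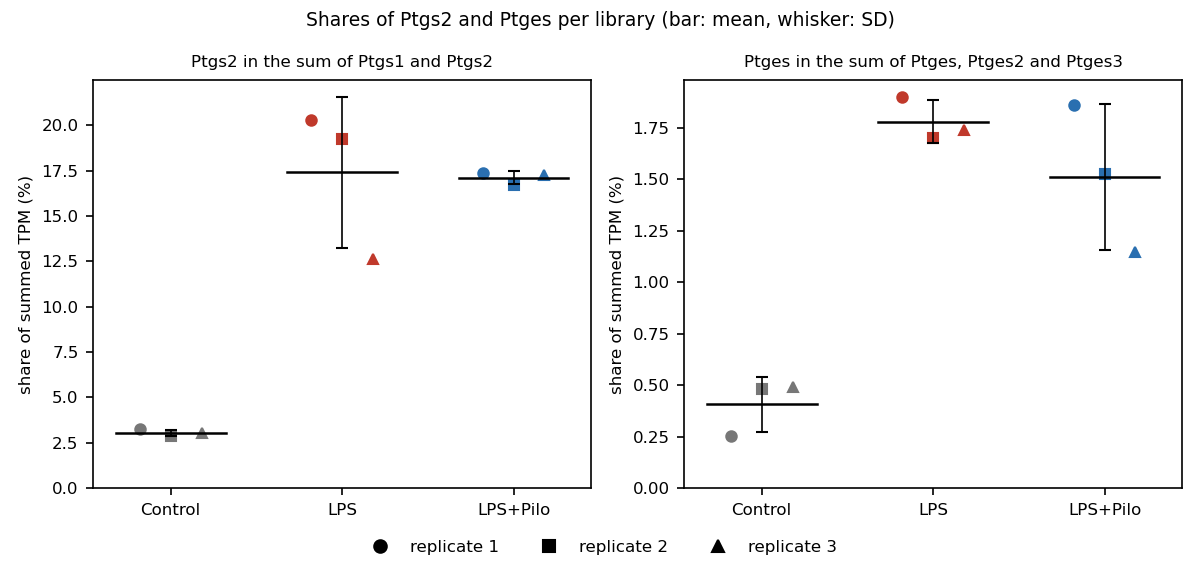
Share of summed TPM in percent (vertical axis) for Ptgs2 among Ptgs1 and Ptgs2 (left) and for Ptges among Ptges, Ptges2 and Ptges3 (right), 1 point per library with the mean and SD of each group. Control libraries lie between 2.88 and 3.24% on the left and between 0.252 and 0.490% on the right, below every library with LPS.

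Of the prostaglandin E synthases, Ptges rose while Ptges2 and Ptges3 did not pass the test. Ptges (ENSMUSG00000050737) encodes the microsomal, inducible synthase that is often coupled to cyclooxygenase-2. It was read at 0.65, 1.09 and 1.23 TPM in Control, 6.08, 5.19 and 4.68 TPM in LPS and 4.91, 4.45 and 3.23 TPM in LPS+Pilo. Every library with LPS lay above Control, and LPS+Pilo overlapped LPS. It reached the test mostly through the libraries with LPS, since Control replicate 1 was under 1 TPM, and it was called without a minimum level too. The ratio of mean TPM to Control was 5.37 in LPS and 4.24 in LPS+Pilo. The log2 fold changes were 1.67 ± 0.18 (adjusted p = 5.82e-04, limma) and 1.38 ± 0.18 (adjusted p = 0.00157, limma). LPS+Pilo over LPS gave -0.29 ± 0.18 (95% interval -0.70 to 0.12; adjusted p = 0.830, limma).

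Its promoter window is shown because Ptges, with Ptgs2, rose in both comparisons with Control. RefSeq (GRCm38.p6) places it at chr2:30903298-30903547, minus strand. The capitals mark the letters of the PU.1 motif read on the opposite strand, 149 to 144 bases before the start.
Ptges: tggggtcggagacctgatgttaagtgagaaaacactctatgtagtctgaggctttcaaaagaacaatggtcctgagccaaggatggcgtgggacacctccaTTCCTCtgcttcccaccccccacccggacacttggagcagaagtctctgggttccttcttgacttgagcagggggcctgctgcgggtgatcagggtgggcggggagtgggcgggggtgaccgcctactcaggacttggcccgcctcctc
The other motifs searched, on both strands, were C/EBP, NF-kB, the AP-1 motif TGANTCA, the E-box, the TATA box and the cyclic AMP response element. For the last the letters TGACG were used, which 17.8% of windows hold. For the E-box they were CACGTG. For the TATA box they were TATAAA. None of these letters is in the Ptges window, which says nothing of the factors.

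Ptges2 (ENSMUSG00000026820), the membrane-associated synthase, was the most abundant member. Its libraries stood at 172.9, 178.7 and 195.9 TPM in Control, 221.7, 198.3 and 202.8 TPM in LPS and 176.7, 206.5 and 204.0 TPM in LPS+Pilo. The LPS libraries lay just above Control, with a log2 fold change of 0.19 ± 0.09 and an adjusted p of 0.264 (limma). LPS+Pilo overlapped both groups. The ratio of mean TPM of Ptges2 to Ptges was 184 in Control, 39.0 with LPS and 46.6 with LPS+Pilo, so Ptges was still a small share of the synthase transcripts.

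Ptges3 (ENSMUSG00000071072) encodes the cytosolic synthase, also known as the co-chaperone p23. It was read at 84.1, 47.4 and 54.1 TPM in Control, 92.2, 101.5 and 61.7 TPM in LPS and 82.5, 80.8 and 74.0 TPM in LPS+Pilo. The groups overlapped through Control replicate 1, and the same libraries that stood high on the second principal component (Control replicate 1, LPS replicates 1 and 2) stood high here. Its part in the result was not tested. LPS over Control gave 0.47 ± 0.23 (adjusted p = 0.260, limma), and without Control replicate 1 it was 0.71 with an adjusted p of 0.0483. Only this 1 of 18 alternatives passed 0.05, and the limma adjusted p reached up to 0.588, without LPS replicate 2. LPS+Pilo over LPS gave -0.08. A processed pseudogene, Ptges3-ps, was read at up to 19.48 TPM, so reads of the pair may be split.

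Tbxas1 (ENSMUSG00000029925), thromboxane A synthase, was low. Its libraries stood at 4.10, 1.88 and 1.4 TPM in Control, 0.89, 1.65 and 0.85 TPM in LPS and 1.01, 0.62 and 0.43 TPM in LPS+Pilo. All 3 Control libraries, but only 1 each of LPS and LPS+Pilo, reached 1 TPM, Control replicate 1 was the highest and the LPS+Pilo libraries lay below every Control library. LPS over Control gave -0.64 ± 0.28 (adjusted p = 0.217, limma) and -0.32 without Control replicate 1. LPS+Pilo over Control gave -0.97 ± 0.28 (adjusted p = 0.0623, limma). It passed 0.05 in 3 of the 17 alternatives that tested it: median-of-ratios scaling (0.0310), quantile normalization (0.0197) and without Control replicate 3 (0.0492). In the others the limma adjusted p reached up to 0.186, without LPS+Pilo replicate 3. The gene overlaps Hipk2 on the opposite strand (up to 8.17 TPM), and no source used here states whether strand was counted.

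**Figure D3:**
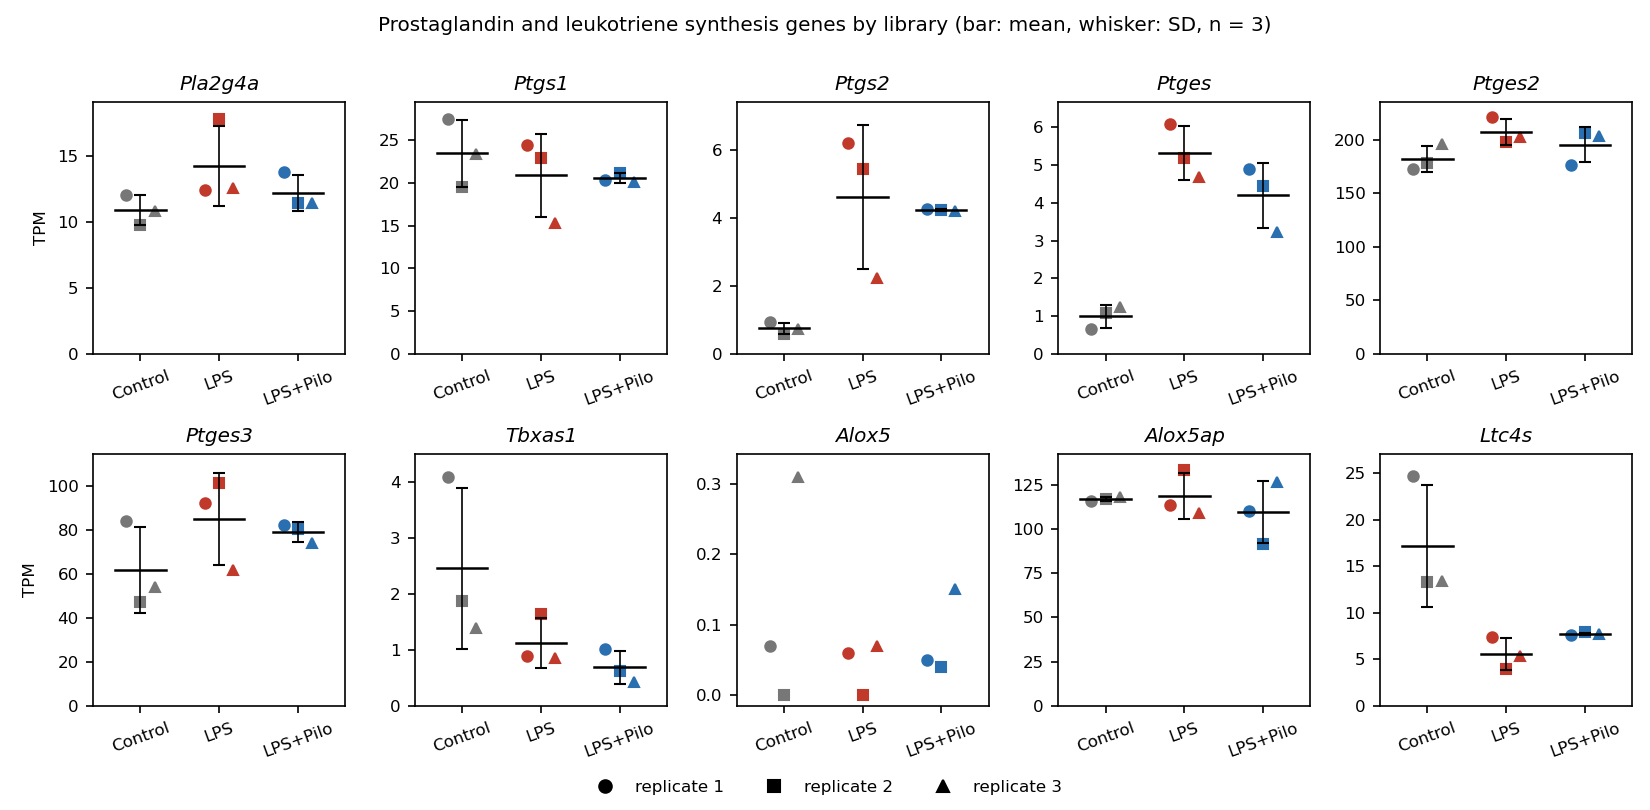
TPM per library (vertical axis, a separate scale per gene) of the 10 genes in Control, LPS and LPS+Pilo, with symbols for replicates 1 to 3 and the mean with SD where at least 1 TPM was reached by 3 libraries. Ptgs2 and Ptges lie above Control in every library with LPS, Ltc4s lies below it, and Alox5 does not exceed 0.31 TPM in any library.

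In the leukotriene branch the activating protein was abundant and the lipoxygenase was at or near 0. Alox5 (ENSMUSG00000025701), 5-lipoxygenase, was read at 0.07, 0 and 0.31 TPM in Control, 0.06, 0 and 0.07 TPM in LPS and 0.05, 0.04 and 0.15 TPM in LPS+Pilo. No library reached 1 TPM, so it was not tested with the other members, and in a fit without a minimum level its adjusted p in limma ranged from 0.656 to 0.983. Alox5ap (ENSMUSG00000060063), which encodes FLAP, the protein that presents arachidonic acid to 5-lipoxygenase, was read at 115.7, 117.1 and 118.2 TPM in Control, 113.5, 133.2 and 108.9 TPM in LPS and 110.2, 91.4 and 126.3 TPM in LPS+Pilo. The Control libraries were close together and the treated groups spread around them. LPS over Control was 0.01 (95% interval -0.26 to 0.29), with the opposite sign under both other scalings (-0.051 and -0.017), and LPS+Pilo over LPS was -0.12 (-0.40 to 0.15), with limma adjusted p of 0.962 and 0.902.

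Ltc4s (ENSMUSG00000020377), leukotriene C4 synthase, fell under LPS. It was read at 24.7, 13.4 and 13.5 TPM in Control, 7.36, 3.97 and 5.35 TPM in LPS and 7.64, 7.90 and 7.69 TPM in LPS+Pilo. Control replicate 1 was the highest, all libraries with LPS were below Control, and each LPS+Pilo library was above every LPS library. LPS+Pilo and LPS were apart in this way, in either direction, for 1 of 9 members and 6 of 30 other pathway genes. The share over all tested genes was not counted, so this order is a description only. The log2 fold change of LPS over Control was -1.45 ± 0.25 (95% interval -2.01 to -0.88; adjusted p = 0.00777, limma), and the mean TPM ratio was 0.324. LPS+Pilo over Control gave -0.999 ± 0.25 (adjusted p = 0.0341, limma), and this call was lost in 6 of 18 alternatives, among them each one that left out an LPS+Pilo library (adjusted p 0.0990 to 0.102), Control replicate 1 (0.0577) or Control replicate 3 (0.0526), and the one without a minimum level (0.0883). LPS+Pilo over LPS gave 0.45 ± 0.25 (95% interval -0.12 to 1.01; adjusted p = 0.793, limma). Antisense Gm26542 overlaps the gene and was read at up to 0.54 TPM.

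The window before its start is shown for contrast with Ptgs2 and Ptges. It lies at chr11:50238533-50238782, minus strand, in RefSeq's GRCm38.p6, and none of the 7 motifs searched was found in it.
Ltc4s: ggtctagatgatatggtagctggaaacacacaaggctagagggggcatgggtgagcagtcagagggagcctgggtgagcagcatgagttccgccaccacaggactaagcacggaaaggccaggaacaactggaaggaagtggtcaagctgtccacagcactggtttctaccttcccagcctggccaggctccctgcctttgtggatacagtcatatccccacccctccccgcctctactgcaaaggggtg
Matches in the windows of the other members were an E-box before Ptges2, PU.1 before Ptgs1 and Alox5, AP-1, PU.1 and overlapping TATA matches before Tbxas1 and an NF-kB match before Ptges3, and a TATA match before 1 of the Pla2g4a starts. RefSeq's table held no window for Alox5ap. The background shares over all windows were 6.02% for the E-box, 6.75% for AP-1, 12.4% for TATA and 7.25% for NF-kB.

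Other genes of the pathway came from a list of 60 symbols on arachidonate release, further synthases, leukotriene enzymes, export and receptors. A single symbol had no match, and Dpep2 had 2 entries. Of 60 matched entries 30 were tested. LPS over Control gave 1 higher and 4 lower of 30 (16.7% called, beside 7.76% of all genes), and LPS+Pilo over Control 3 higher and 4 lower (23.3%, beside 10.2%). LPS+Pilo over LPS gave 0 of 30 by limma, with 5 at an unadjusted p under 0.05: Pla2g12a (log2 fold change 0.25) and Akr1b3 (0.27) higher, and Abhd12 (-0.37), Mgst3 (-0.26) and Anxa1 (-0.68), which encodes annexin A1, lower. At that unadjusted p stood 761 of all 11260 tested genes (6.76%), and none of these 5 differences passed the adjusted test. The medians of the 30 were 0.07, 0.01 and -0.07 in these comparisons, beside 0.07, 0.02 and -0.05 over all tested genes.

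Among the phospholipases, Pla2g5, a secreted group V enzyme, rose from a Control mean of 25.3 ± 2.44 TPM (SD, n = 3) to 48.6 ± 7.73 with LPS and to 57.3 ± 2.19 with LPS+Pilo. The log2 fold changes were 0.91 (adjusted p = 0.00223, limma) and 1.15 (adjusted p = 4.29e-04, limma). Pla2g12a, another secreted enzyme, was at 33.95 ± 1.95, 39.5 ± 1.30 and 47.2 ± 0.890 TPM in the groups in that order. It rose with LPS+Pilo by 0.47 on the log2 scale over Control (adjusted p = 0.00688, limma), and LPS over Control gave 0.21 (adjusted p = 0.163, limma). Pla2g6 was at 13.7, 17.0 and 16.1 TPM and did not pass.

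Abhd12, Daglb and Pla2g15 fell in both comparisons with Control. Abhd12, a hydrolase of lysophosphatidylserine and 2-arachidonoylglycerol, had a Control mean of 205.5 ± 12.5 TPM, against 149.9 ± 10.2 with LPS and 115.7 ± 6.94 with LPS+Pilo, with log2 fold changes over Control of -0.45 (adjusted p = 0.0118, limma) and -0.82 (adjusted p = 3.07e-04, limma). The call for LPS was lost when Control replicate 3 (adjusted p 0.0624) or LPS replicate 2 (0.0595) was left out. LPS+Pilo over LPS had an adjusted p of 0.353. Daglb, diacylglycerol lipase beta, which makes 2-arachidonoylglycerol, fell from 14.6 ± 0.390 TPM to 9.84 ± 0.771 with LPS and to 9.28 ± 0.560 with LPS+Pilo (adjusted p = 0.0191 and 0.00808, limma). Its LPS call was lost when Control replicate 2 (0.0504), Control replicate 3 (0.0881) or LPS replicate 1 (0.0729) was left out, and when the LPS+Pilo libraries were (0.0705). It overlaps Rac1 (up to 165.39 TPM) on the opposite strand. Pla2g15, the lysosomal phospholipase A2, was at 25.97, 19.98 and 18.8 TPM, with a limma adjusted p of 0.0486 for LPS and 0.0169 for LPS+Pilo. The LPS call was lost in 12 of 18 alternatives, including each that left out a library, whichever it was (0.0679 to 0.164). The LPS+Pilo call was lost without Control replicate 2 (0.0530), Control replicate 3 (0.0696), LPS+Pilo replicate 1 (0.0697) or LPS+Pilo replicate 2 (0.0612). Lpcat3 and Mboat7, acyltransferases that return arachidonate to membrane lipids, stood at group means of 30.04 to 34.2 and 24.3 to 28.03 TPM and did not pass.

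**Figure D4:**
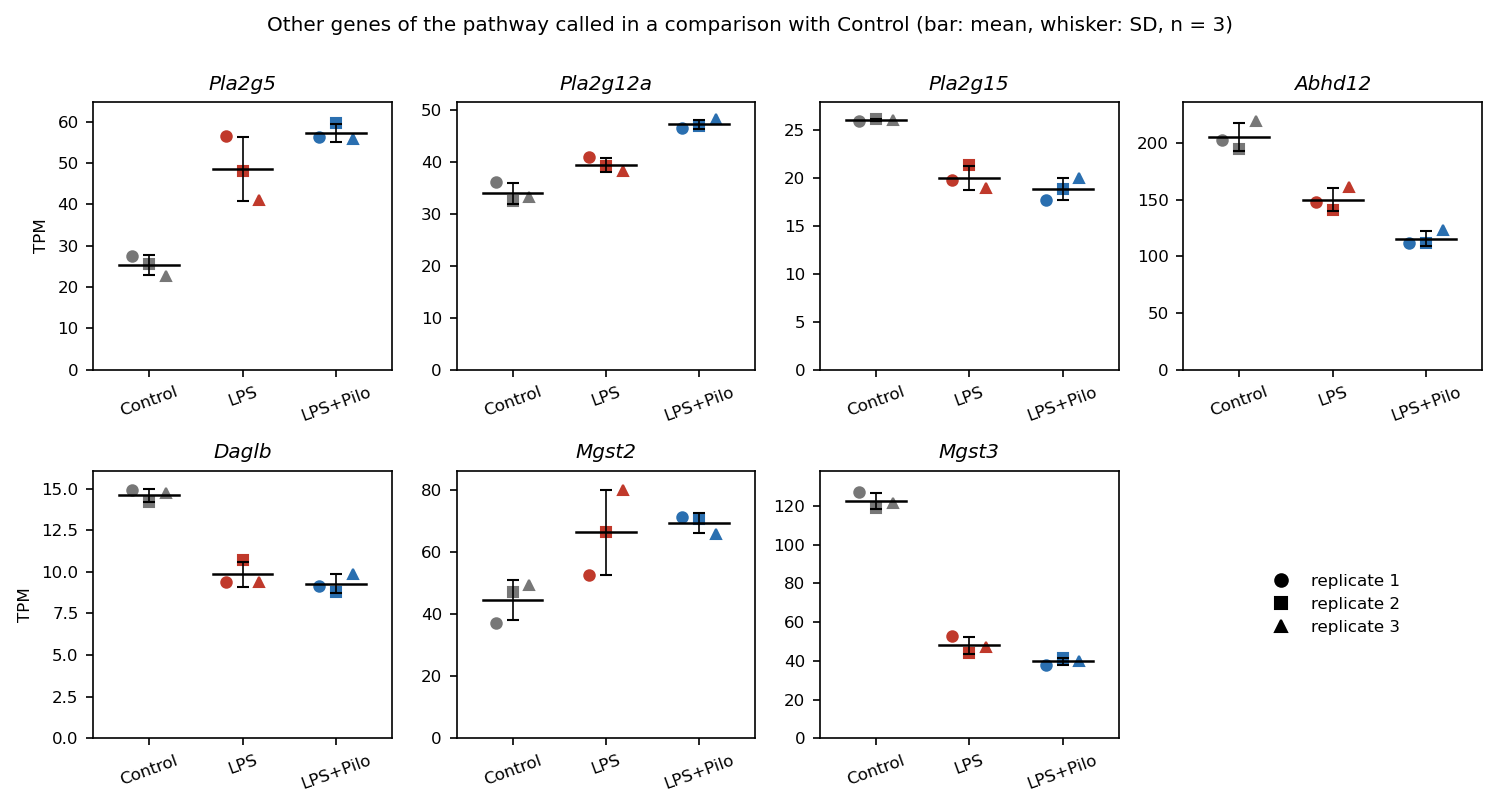
TPM per library (vertical axis, from 0) of the 7 other pathway genes called in a comparison with Control, with the mean and SD of 3 libraries per group. Abhd12, Daglb, Pla2g15 and Mgst3 lie lower in every library with LPS than in Control, and Pla2g5 lies higher.

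Mgst3, a microsomal glutathione transferase with leukotriene C4 synthase activity in vitro, fell with LPS and with LPS+Pilo. Its Control mean was 122.6 ± 4.14 TPM, against 47.9 ± 4.43 with LPS and 39.7 ± 1.68 with LPS+Pilo, and no library with LPS overlapped Control. The log2 fold changes over Control were -1.34 and -1.60 (adjusted p = 2.45e-05 and 6.53e-06, limma). Mgst2, its close relative, rose in LPS+Pilo from 44.5 ± 6.49 to 69.4 ± 3.08 TPM (0.64, adjusted p = 0.0301, limma). That call was lost in 9 of 18 alternatives, among them each that left out a Control library (adjusted p 0.0519 to 0.0701) or an LPS+Pilo library (0.0732 to 0.1004). With all libraries kept, it was lost under median-of-ratios scaling (0.0984), quantile normalization (0.0553) and no minimum level (0.0731). With LPS the gene was at 66.4 ± 13.7 TPM (adjusted p = 0.0627, limma), and at 0.0273 without LPS replicate 1. Of the summed TPM of Ltc4s, Mgst2 and Mgst3, Ltc4s held a mean of 9.27, 4.68 and 6.63% in the same order of groups, Mgst2 24.2, 55.1 and 59.4% and Mgst3 66.5, 40.3 and 34.0%. Lta4h, the hydrolase that makes leukotriene B4, was at 46.1, 45.4 and 41.9 mean TPM, and neither of the entries for Dpep2, a dipeptidase of leukotriene D4, passed.

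None of the 4 other prostanoid synthases, 5 genes of export and inactivation or 3 receptors that were tested was called by limma in any comparison. Akr1b3, an aldose reductase with prostaglandin F synthase activity, was the most abundant at 216, 220 and 268 TPM. Hpgds, haematopoietic prostaglandin D synthase, was at 23.1, 25.2 and 23.3 TPM and Cbr1, a carbonyl reductase of prostaglandins, at 11.01, 8.57 and 8.50 TPM. The exporter Abcc1 stood at 15.4, 19.7 and 17.1 TPM, the prostaglandin reductase Ptgr2 at 16.8, 16.7 and 15.6 TPM and Cyp4f18, a leukotriene B4 hydroxylase, at 10.8, 8.32 and 9.01 TPM. Of the receptors, the prostacyclin receptor Ptgir was at 13.2, 18.5 and 16.0 TPM, while the prostaglandin E2 receptors Ptger4 and Ptger1 had group means of 1.5 TPM or less. Hpgd, the main prostaglandin dehydrogenase, and Ptger3 were listed at 0 in all 9 libraries.

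**Figure D5:**
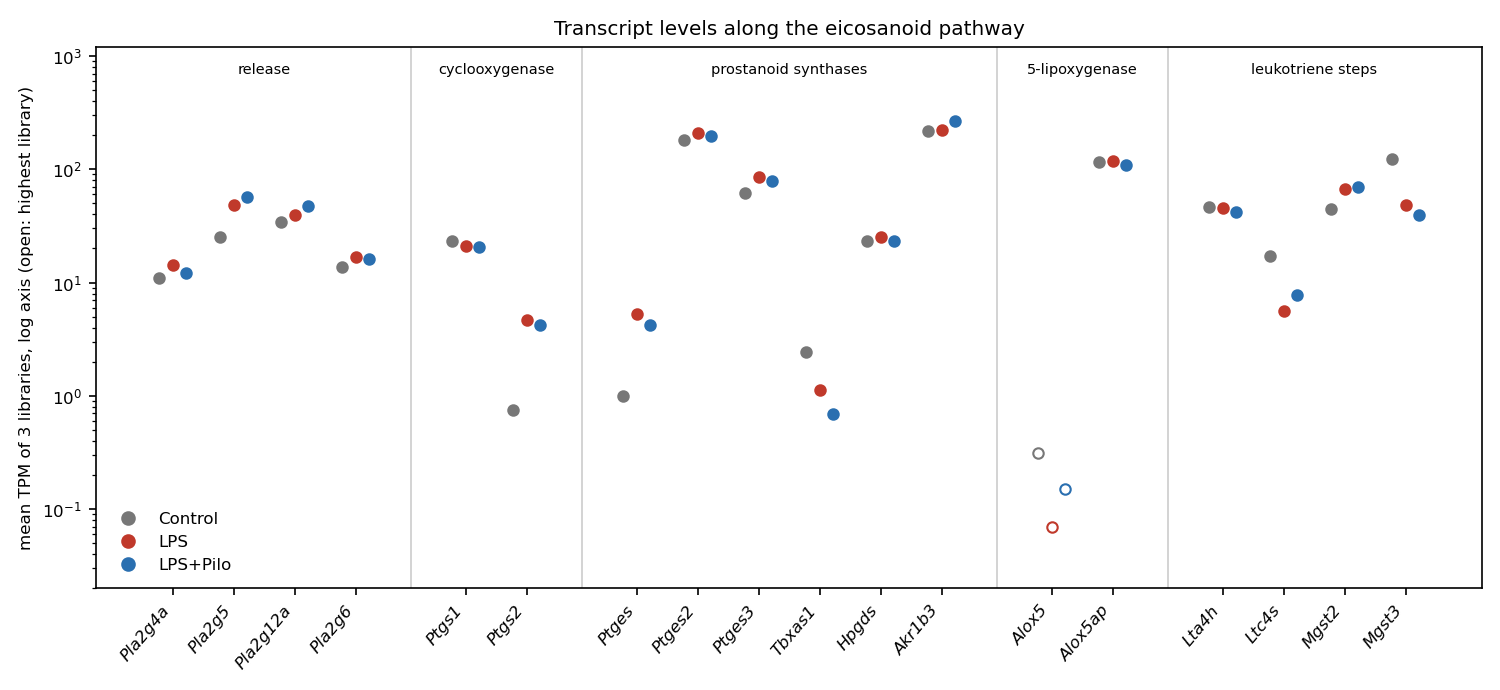
Mean TPM of 3 libraries on a log axis (vertical) for 18 genes from release to the leukotriene steps (horizontal), with open symbols for Alox5 at its highest library. Ptges2, Akr1b3 and Alox5ap are the highest of the 18 in LPS and LPS+Pilo, Ptgs2 and Ptges move upward from Control, and Alox5 lies below 1 TPM.

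In level, the members ordered in every group from Ptges2 through Alox5ap and Ptges3 at the top to Alox5 at the bottom. Alox5ap and Ptges3 did not overlap in any group. In LPS, Ptgs1 (15.3 to 24.4 TPM) and Pla2g4a (12.4 to 17.7 TPM) overlapped. In LPS, Ltc4s (5.56 ± 1.70 TPM), Ptges (5.32 ± 0.709) and Ptgs2 (4.63 ± 2.12) were not separated by their spread, whereas in Control Ltc4s lay far above both.

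The genes whose levels most resembled those of Ptgs2 over the 9 libraries were Rac2 (Pearson r = 0.989), Syn1 (0.989) and Siglec1 (0.987). Those closest to Ptgs1 were Fam168b (0.982), Kif18b (0.974) and Rpap1 (0.972), and those closest to Alox5ap were Btd (0.903), Acer3 (0.880) and Tmem50a (0.848). These are descriptions over log2(TPM + 1) among genes averaging 5 TPM or more, and the libraries share their groups and their composition.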

How the data were processed

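Per the labels' protocols, TRIzol was used for RNA extraction and a TruSeq kit for the libraries. The authors deposited 1 table of TPM with 2 decimals for 9 libraries. The submitters' processing notes name the build GRCm39 and, as tools, STAR 2.7.1a, fastp 0.19.5 and DESeq2 1.24.0. How TPM were computed, and with which annotation and strand setting, is not given in the sources used here. Symbols came from GENCODE M21 (GRCm38) by Ensembl identifier for 52081 genes, and promoter sequences from RefSeq, with an entry for 9 of 10 genes.

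The genes with 1 TPM or more in 3 or more libraries were fitted in limma 3.58.1 (R 4.3.3) on log2(TPM + 1), with 1 mean per group, 6 residual degrees of freedom, a variance trend and two-sided tests, adjusted by Benjamini-Hochberg over all 11260 genes. The procedure was tested on simulated data with independent normal errors for each gene and library. Such data lack a spread that many genes share, as on the second principal component, so that test does not cover it. Alternatives changed the pseudocount, the minimum level, scaling, the variance model, the replicate block and the libraries. The members, gene lists and rules were chosen with earlier results of these data known. Named were all members, up to 4 called genes per list and comparison by size of change, up to 3 uncalled by level, and the 3 genes most like Ptgs2, Ptgs1 and Alox5ap; Anxa1, Hpgd, Ptger3 and the marker genes were named beyond the rule, after their values were seen. Reads of pseudogenes or overlapping genes may be assigned to the wrong gene. The SD values are the spread of 3 libraries. The SE, intervals and p-values of limma instead rest on 1 spread per gene, pooled over the 3 groups. That spread is also drawn toward a trend over all tested genes, so each gene has the same SE in every comparison. TPM keep no depth, so read counts could not be used.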

Additional observations from a re-analysis of the deposited data

How the results depend on the processing

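Across 18 alternatives, the 9 tested members gave 454 fold changes on the same side of the threshold and in the same direction, 4 newly past it, 6 no longer past it and 13 uncalled values with the opposite sign. Members called fell from 3 to 1 against Control in both comparisons with a minimum of 5 TPM, because Ptgs2 and Ptges then go untested, and ranged from 3 to 4 (LPS) and from 2 to 4 (LPS+Pilo) when single libraries were left out, scaling was changed or no minimum was set. The other pathway genes called in LPS numbered 8 with quantile normalization, 3 when only the groups compared were fitted and 2 to 6 when single libraries were left out. The signs that turned were those of Alox5ap, LPS over Control (-0.051 with median-of-ratios scaling, -0.017 with quantile normalization, -0.073 to 0.071 without single libraries), and of Ptgs2, LPS+Pilo over LPS (0.0013 with a pseudocount of 0.1, 0.026 and 0.050 with those scalings, -0.38 to 0.20 without single libraries). Without single libraries the range was -0.30 to 0.024 for Ptgs1 in LPS, -0.29 to 0.066 for Ptges3 and -0.19 to 0.13 for Ptgs1 in LPS+Pilo over LPS, -0.072 to 0.23 for Mgst2 there, -0.22 to 0.012 for Alox5ap in LPS+Pilo over Control and -2.68 to 1.15 points for the share of Ptgs2 in LPS+Pilo over LPS. Libraries of the same replicate number had correlations of deviations of -0.225 to 0.165, with 2 of 9 over 0.1. Unlike numbers reached -0.370 (Control 1 with LPS 3) and 0.300 (Control 2 with LPS 3). These values cannot tell whether libraries were prepared in matched sets, which the labels do not state. With a replicate block 3, 0 and 3 members were called in LPS, LPS+Pilo over LPS and LPS+Pilo over Control. The block ended the LPS call of Pla2g15 (adjusted p 0.0795) and made one of Mgst2 (0.0460). Over all genes, the 874 calls for LPS became 569 without Control replicate 2, 426 without Control replicate 3, 506 and 466 without LPS replicates 1 and 2, 486 with only the groups compared and 1516 with quantile normalization (614 higher and 902 lower, against 464 and 410). The 1143 calls for LPS+Pilo over Control became 660 without Control replicate 3, 737, 669 and 690 without each LPS+Pilo replicate and 1726 with quantile normalization. The 5 calls for LPS+Pilo over LPS became 0 without any of the LPS+Pilo replicates in turn and 1 to 3 with the block, quantile normalization, median-of-ratios scaling, no minimum, only the groups compared, no variance trend or without an LPS replicate. The cause of these shifts was not tested.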
